A study of Drosophila melanogaster with 3 samples.

Results

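The cells described here are embryonic germ cells of the fruit fly Drosophila melanogaster that carried either few or many transcripts of Cyclin B, the partner of the mitotic kinase Cdk1. They were taken from a female and a male single-cell library. A cell counted as a germ cell when it had at least 1000 unique molecular identifiers (UMIs, each standing for 1 captured transcript), at least 500 detected genes and UMIs for at least 3 of the 7 genes vas, nos, pgc, zpg, aub, CG17650 and CG14545. Germ cells with under 5 CycB UMIs per 10000 UMIs are called CycB-low and those with at least 10 are called CycB-high. The cells were thus chosen by their UMIs of CycB and of the 7 germ cell genes. These limits gave 4589 cells, of which 957 were female (585 CycB-low and 372 CycB-high) and 3632 were male (1976 CycB-low and 1656 CycB-high). They were part of 5960 cells that met the germ cell rule in both libraries, of 17142 barcodes in these libraries and of 20952 barcodes in the series.

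Fly germ cells form at the posterior pole of the egg, where they take up germ plasm, a cytoplasm rich in maternal RNA and protein. Young germ cells are held transcriptionally silent by the Pgc peptide, which blocks the elongation kinase P-TEFb, and they stop dividing in G2 while they migrate to the gonad. CycB RNA is itself a germ plasm transcript, and the RNA-binding proteins Nanos and Pumilio hold back its translation during migration.

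Both sexed libraries came from embryos aged 5 to 8 h of the genotype Sxl-GFP, vas-GFP, in which one reporter is named for a germ cell gene and the other for the sex-determination gene Sxl. Embryos were homogenised, GFP-expressing cells were sorted by flow cytometry, and 1 library per sex was made with version 3 of the 10x Genomics 3′ kit. Another library, of unsexed vas-GFP embryos aged 0 to 8 h and made with version 2 of the kit, was used for values side by side. With 1 library per sex, and with classes cut from a measured transcript, no test was run, every value is a description, and intervals cover counting error only. None of the counted features is named GFP, and the reporters were not checked. Cells meeting the germ rule were 12.3% of female and 70.2% of male cells past the depth limits.

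CycB-low cells made up 46.1% of female germ cells (exact binomial 95% interval 43.4 to 48.9%) and 42.1% of male germ cells (40.7 to 43.5%). CycB-high cells made up 29.3% and 35.3%. The 311 female and 1060 male cells between the limits stood at medians of 7.10 and 7.19 CycB UMIs per 10000. The median was 2.47 in female and 2.13 in male CycB-low cells, and 18.8 and 18.4 in CycB-high cells, so the classes had nearly the same centre in both libraries. Single cells reached 153 CycB UMIs per 10000 in female cells and 194 in male cells. No CycB UMI was counted in 34 female and 387 male CycB-low cells. Among other cells, meaning cells past the same minimum depth with UMIs for none of the 7 germ genes, 53 of 6887 female and 34 of 1237 male cells reached the CycB-high limit. Just outside the germ rule, 293 female and 428 male cells had UMIs for 2 of the 7 genes.

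**Figure D1:**
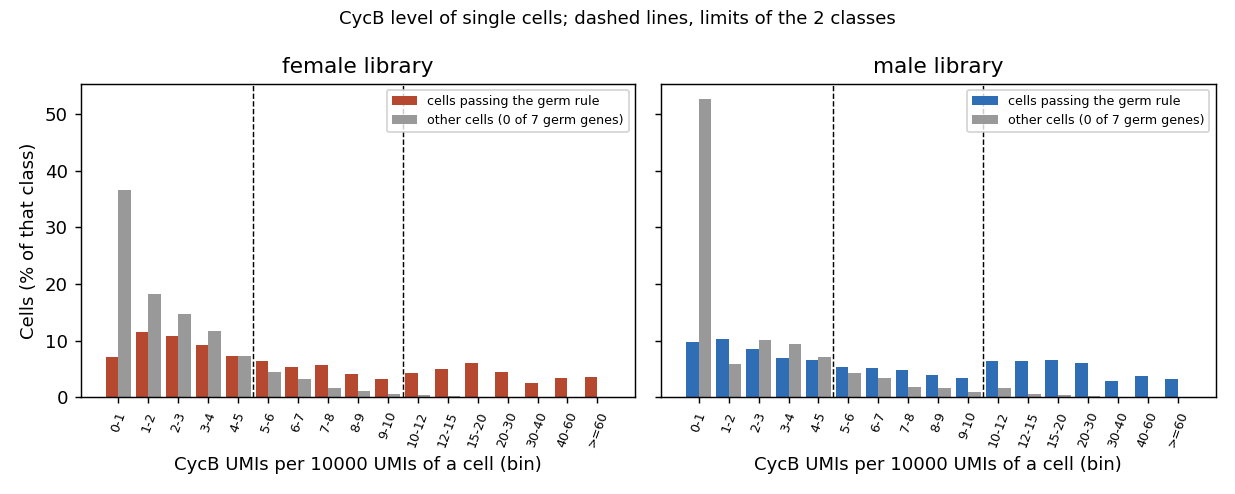
Share of cells (% of their class, vertical axis) in bins of CycB UMIs per 10000 UMIs (horizontal axis) for cells passing the germ rule (coloured) and other cells (grey) in the female and male libraries. Germ cells spread over the whole range in both libraries, while most other cells lie below the lower dashed line at 5.

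In the matrices the median UMI count was 20112 in female CycB-low and 17107.5 in female CycB-high cells, against 8154 and 7117 in the male classes. Summed UMIs came to 12740384 and 6789980 in the female classes and to 16692186 and 12465109 in the male classes. Thinned to 2000 UMIs, a CycB-low cell showed a median of 1005 genes in female cells and 1008 in male cells, and a CycB-high cell 1021 and 1038. This left out 1 female and 4 male CycB-high cells. A second deposited form of the counts, as dense tables, gave the same barcodes of both classes medians of 22450 UMIs in female and 19485.5 in male cells, against 18919 and 7711 in the matrices. The sources used here do not state why, so the gap in depth between the libraries depends on which of the deposited files is read. No germ cell barcode was shared between the female and male libraries, and 1 was shared between the female and the unsexed library.

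The germ cell markers did not divide the classes alike. The gap junction gene zpg, needed for germ cell survival, had a UMI in 92.8% of female CycB-low and 98.4% of CycB-high cells, and in 94.9% and 91.8% of male cells. For vas, an RNA helicase of the germ granule, the shares were 78.5% and 67.2% in female and 51.3% and 39.3% in male cells. In contrast, pgc had a UMI in 14.7% of female CycB-low against 87.9% of CycB-high cells, and in 10.7% against 75.9% in the male library. Thinned to 2000 UMIs, these pgc shares became 3.25% and 53.1% in the female and 3.69% and 50.5% in the male library. The marker CG17650 went the other way, with UMIs in 87.7% of CycB-low and 47.6% of CycB-high female cells and in 81.5% and 43.7% of male cells. Other cells have none of these UMIs by definition, at medians of 6607 UMIs in female cells and 3260 in male cells. All 7 genes chose the cells, and pgc counted towards the rule more often in CycB-high and CG17650 more often in CycB-low cells.

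The UMIs of all cells in a class were added up and scaled to CPM (UMIs of a gene per 1000000 UMIs) without CycB and mitochondrial genes. Genes entered the comparison with at least 20 CPM in 1 class and at least 100 UMIs over both. Of 5270 such genes in the female library, 120 (2.28%) were at least 2-fold higher in CycB-low and 203 (3.85%) at least 2-fold higher in CycB-high cells. Of 5121 genes in the male library, 54 (1.05%) were higher in CycB-low and 147 (2.87%) in CycB-high cells, together 201 (3.93%) beside 323 (6.13%) in the female library. Over the 4974 genes measured in both, 37 (0.744%) were higher in CycB-low cells of both libraries and 128 (2.57%) in CycB-high cells of both, together 165 (3.32%). The shared CycB-high genes made up 63.1% of the female and 87.1% of the male list, and the shared CycB-low genes 30.8% and 68.5%. No gene was called in opposite directions. Large differences lay mostly on the CycB-high side, where 49 female and 34 male genes were at least 4-fold higher, against 8 and 4 on the CycB-low side. Across the 4974 genes, the log2 ratios of the libraries had a Spearman correlation of 0.883, a description over genes that share 2 libraries and their cell classes.

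**Figure D2:**
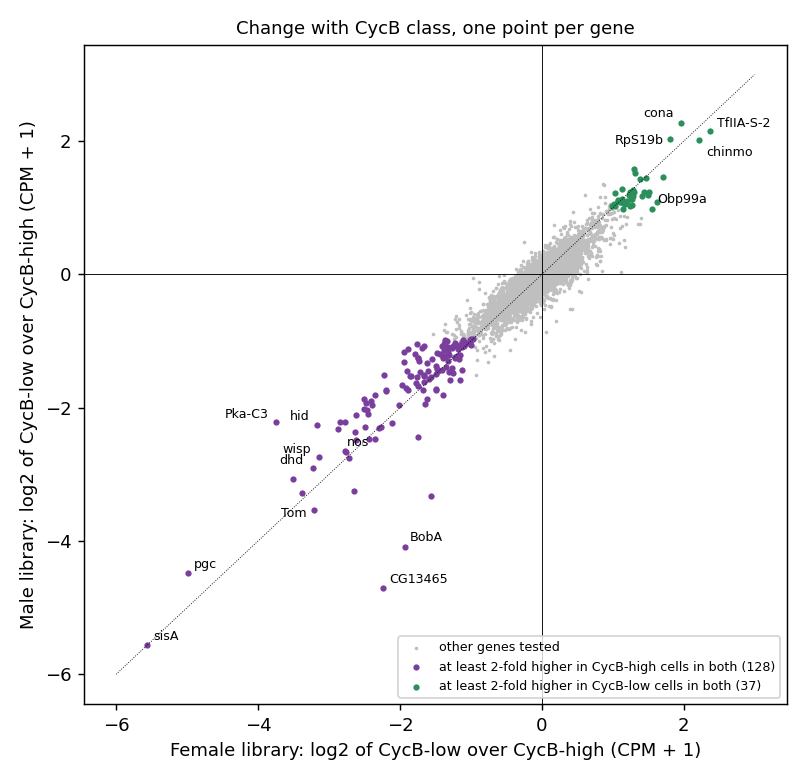
Each point is a gene, placed by its log2 ratio of CycB-low over CycB-high cells (CPM + 1) in the female library (horizontal) and the male library (vertical), with a dotted line of equality. Genes at least 2-fold higher in CycB-high cells of both libraries (128, purple) lie below 0 on both axes, and the 37 higher in CycB-low cells (green) above 0.

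Germ plasm transcripts stood highest in CycB-high cells. Of the germ plasm and maternal RNA list, 12 of 14 genes passed the filter, and 6 of these were at least 2-fold higher in CycB-high cells of both libraries while none was higher in CycB-low cells. The list's median log2 ratio of low over high was -1.05 in female cells and -0.79 in male cells, beside -0.03 and -0.04 over all genes. The list includes the rule genes pgc and nos. Transcripts of pgc stood at 16.2 CPM in female CycB-low and 543 CPM in CycB-high cells, and at 25.3 and 589 CPM in male cells, which is 33.6-fold (95% interval 29.2 to 38.8) and 23.3-fold (21.1 to 25.7) higher in CycB-high cells. The gene overlaps T3dh on the opposite strand. For nos, whose protein represses maternal mRNA translation, the levels were 44.0 and 328 CPM in female and 68.1 and 345 CPM in male cells.

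Besides pgc and nos, the calls were dhd, osk, exu and gcl. Transcripts of dhd, a thioredoxin of the female germline (X, 5312171 to 5313125 in BDGP6), stood at 49.1 and 468 CPM in female CycB-low and CycB-high cells and at 54.5 and 414 CPM in male cells. That is 9.52-fold (8.73 to 10.4) and 7.6-fold (7.08 to 8.17) higher in CycB-high cells, and other cells held 0.864 and 3.18 CPM. The differences of osk, which builds the germ plasm, were smaller, at 3.84-fold and 2.80-fold. Both exu, which localises maternal RNA, and gcl, needed for germ cell formation, were also higher in CycB-high cells, by 5.21-fold and 3.38-fold in the female and 3.0-fold and 2.84-fold in the male library. Members below the limit were near balance, such as Hsp83, a chaperone whose maternal RNA is kept at the posterior pole, at 3126 and 3451 CPM in female and 3624 and 3801 CPM in male cells. The Tudor-domain gene tud (111 and 98.2 CPM, 119 and 98.3 CPM) and vls (118 and 93.3 CPM, 137 and 112 CPM) stood slightly higher in CycB-low cells.

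Several further transcripts of late oogenesis and the egg had the same profile. The cytoplasmic poly(A) polymerase gene wisp (X, 11893943 to 11899920) stood at 56.0 and 504 CPM in female CycB-low and CycB-high cells and at 60 and 405 CPM in male cells. It was 9.0-fold (8.30 to 9.77) and 6.75-fold (6.31 to 7.23) higher in CycB-high cells. Transcripts of mtrm, which holds back Polo kinase in the oocyte, were 12.6-fold (10.3 to 15.5) and 9.06-fold (7.77 to 10.6) higher, from 8.79 to 110 CPM in female and from 11.3 to 102 CPM in male cells. The mtrm gene lies within Exo70 on the same strand, and reads of the overlap cannot be told apart. Maternal alphaTub67C, an alpha-tubulin of the egg, and Mos, an oocyte kinase, were 5.67-fold and 3.40-fold higher in the female and 4.38-fold and 2.20-fold higher in the male library. They were picked after their values were seen.

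The gene with the widest separation was sisA, an X-linked transcription factor that helps to count X chromosomes in the early embryo (X, 11321579 to 11322357). It stood at 4.55 CPM in female CycB-low and 261 CPM in CycB-high cells, and at 1.86 and 135 CPM in male cells. CycB-high cells were thus 57.3-fold (44.1 to 75.7) and 72.4-fold (50.8 to 107) higher, and other cells were at 3.0 and 5.51 CPM. A sisA UMI was found in 2.56% of CycB-low and 36.0% of CycB-high female cells, and in 1.16% and 20.7% of male cells. Thinned shares were 0.513% and 20.2% in the female and 0.405% and 13.7% in the male library, beside 0.341% and 1.06% of thinned other cells. The CycB-low shares were therefore at the level of cells outside the germline. The early zygotic list held 7 female and 6 male genes past the filter, and beyond sisA a single further call was made, for halo in the female library at 7.54 and 22.3 CPM. Zygotic activators stood near balance, such as Clamp (67.6 and 94.4 CPM in females, 69.3 and 94.0 CPM in males) and zld (89.9 and 69.4 CPM, 32.5 and 36.3 CPM).

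Tom, of the Bearded family of small proteins that modulate Notch signalling, was also among the leading CycB-high genes. It (3L, 14969344 to 14970306) stood at 305 and 2823 CPM in female and 253 and 2951 CPM in male CycB-low and CycB-high cells. Tom was 9.27-fold (8.95 to 9.60) and 11.6-fold (11.3 to 12) higher. Among the germ plasm transcripts, dhd had a UMI in 0.711% of female and 1.05% of male other cells, but gcl in 22.5% and 13.2%. Tom was present in other cells at 794 and 1125 CPM, with a UMI in 61.1% and 55.9% of them. Thinned, these shares were 45.9% and 53.2%, against 19.8% and 19.2% of CycB-low and 57.4% and 53.7% of CycB-high germ cells. Its relatives Brd and BobA and the gene CG13465, picked after their values were seen, were higher in CycB-high cells of both libraries as well, but by unequal amounts. CG13465 went from 82.2 to 390 CPM in female and from 13 to 365 CPM in male cells, 4.74-fold and 28.1-fold. Brd differed 2.99-fold and 11-fold and BobA 4.04-fold and 24.8-fold. In all 3 the CycB-high levels were closer between libraries than the CycB-low levels. Other cells held 279, 186 and 52.7 CPM of CG13465, Brd and BobA in the female library and 385, 145 and 62.3 CPM in the male library. The part of other cells in this gap was not tested. Another relative, Ocho, was under 2-fold apart, at 158 and 87.3 CPM in female and 32.4 and 31.1 CPM in male cells. Bearded genes are paralogs, and reads shared between close copies could be split or lost.

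Regulators of maternal RNA formed the next group. Of 21 genes of the maternal RNA repression and decay list past the filter, 6 were at least 2-fold higher in CycB-high cells in each library and none in CycB-low cells, with medians of -0.38 and -0.37. Transcripts of pum, the partner of Nanos, stood at 289 and 1096 CPM in female and 267 and 875 CPM in male CycB-low and CycB-high cells (3.79-fold and 3.27-fold). The RNA helicase me31B was at 289 and 734 CPM in female and 341 and 801 CPM in male cells, and its partner tral at 339 and 777 CPM and at 325 and 683 CPM. A subunit of the egg's PNG kinase, plu, differed by 2.84-fold and 2.28-fold. Both nos, a gene of the germ cell rule, and cta make up the rest of the 6. Of these, cta encodes a G protein alpha subunit of gastrulation and is no RNA regulator. Genes of the deadenylase complex were not on this side, as Not1 stood at 608 and 464 CPM in female and 629 and 450 CPM in male cells and Pop2 at 49.8 and 51.4 CPM and 51.1 and 51.1 CPM. Poly(A)-binding protein pAbp stood at 1795 and 2516 CPM in female and 1786 and 2379 CPM in male cells, under 2-fold apart.

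Pro-apoptotic genes were part of the CycB-high profile. Transcripts of hid, which antagonises the caspase inhibitor Diap1, stood at 52.1 and 476 CPM in female and 76.6 and 371 CPM in male CycB-low and CycB-high cells. It was 9.14-fold (8.40 to 9.95) and 4.84-fold (4.55 to 5.16) higher. The related rpr stood at 51.8 and 176 CPM in female and 38.9 and 126 CPM in male cells, and other cells held 174 and 217 CPM of it. The other 6 genes of the apoptosis list past the filter were under 2-fold apart in both libraries, among them Diap1 at 162 and 104 CPM in female and 108 and 85.0 CPM in male cells, and p53 at 36.7 and 73.1 CPM and 48.3 and 75.7 CPM.

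Of 11 migration genes past the filter, Tre1 and wun2 were higher in CycB-high cells of both libraries. Tre1, a G protein-coupled receptor needed for leaving the midgut, stood at 59.1 and 187 CPM in female and 39.7 and 156 CPM in male cells (3.15-fold and 3.94-fold). The lipid phosphatase gene wun2, needed for germ cell survival and guidance, stood at 64.3 and 146 CPM in female and 55.8 and 136 CPM in male cells. Cells outside the germline held both transcripts, Tre1 at 140 and 124 CPM and wun2 at 83.7 and 108 CPM. The adhesion gene shg, E-cadherin, was under 2-fold apart, at 182 and 265 CPM in female and 170 and 272 CPM in male cells. The small GTPase Rho1 was near balance at 468 and 512 CPM and 514 and 565 CPM. In the JAK-STAT list, with 5 female and 4 male genes past the filter, the kinase hop was the single call, higher in CycB-high cells by 2.21-fold and 2.75-fold.

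Cell cycle genes other than CycB were mostly under 2-fold apart, with more of them on the CycB-high side. Of the cyclin, CDK and phosphatase list, 22 female and 19 male genes passed the filter and 1 was called in each library, near the share of all genes called. A log2 ratio below 0 was found for 16 of the 22 and 16 of the 19, with medians of -0.12 and -0.21. Over all genes, 2783 of 5270 female and 2797 of 5121 male ratios lay below 0, with medians of -0.03 and -0.04. The call was Wee1, the kinase that inhibits Cdk1, at 22.3 and 62.2 CPM in female and 24.4 and 57.0 CPM in male CycB-low and CycB-high cells. Its target Cdk1 stood at 364 and 408 CPM in female and 431 and 497 CPM in male cells. Other mitotic cyclins were also under 2-fold apart, with CycA at 115 and 85.5 CPM in female and 76.1 and 75 CPM in male cells and CycB3 at 157 and 202 CPM and 127 and 199 CPM. The phosphatase stg, which starts mitosis, stood at 108 and 109 CPM in female and 45.9 and 71.7 CPM in male cells. All 21 spindle and segregation genes past the filter were under 2-fold apart in females, whereas in males mud, a spindle orientation gene, was higher in CycB-high cells at 35.3 and 83.7 CPM. Of these 21 genes, 14 female and 16 male ratios lay below 0. Among replication genes dup, the licensing factor Cdt1 of the fly, was higher in CycB-high cells by 2.40-fold and 2.82-fold. This was 1 of 2 female calls among 20 genes and the single male call among 19. Below 0 lay 13 of the 20 and 15 of the 19 replication genes, with medians of -0.23 and -0.42. PCNA, the sliding clamp of replication, was under 2-fold apart at 376 and 545 CPM in female and 398 and 580 CPM in male cells.

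Enzymes of glycolysis leaned towards CycB-high cells as a list. In each library 10 of the 11 genes past the filter had a log2 ratio below 0, with medians of -0.79 and -0.64, and 2 were called. Hex-A, a hexokinase, stood at 7.93 and 31.9 CPM in female and 6.35 and 23.5 CPM in male cells, and Tpi, triose phosphate isomerase, at 35.6 and 106 CPM and 46.0 and 112 CPM. The other members were under 2-fold apart, such as Eno, enolase, at 696 and 1278 CPM in female and 864 and 1419 CPM in male cells, and other cells held 37.6 and 61.1 CPM of it. Pgi was the exception in direction, at 86.7 and 70.9 CPM and 91.4 and 75.1 CPM. Genes of glycogen metabolism, picked after their values were seen, had the same direction, with glycogen phosphorylase GlyP 7.93-fold and 5.15-fold and UGP 2.50-fold and 2.82-fold higher in CycB-high cells. The glutathione transferase genes GstD1 (5.56-fold and 6.13-fold), GstE11 (2.66-fold and 2.06-fold), GstT3 (2.33-fold and 2.39-fold) and GstZ1 (2.19-fold and 2.11-fold), likewise picked afterwards, were higher in CycB-high cells too. MED26, a Mediator subunit on chromosome 4 that was also picked afterwards, stood at 522 and 1648 CPM in female and 672 and 1907 CPM in male cells.

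The lists of piRNA genes were close to balance. All 19 measured members of the nuage and cytoplasmic piRNA list were under 2-fold apart in the male library, and 1, shu, passed the limit in the female library at 151 and 307 CPM. The rule gene vas stood at 82.8 and 70.7 CPM in females and 94.0 and 71.3 CPM in males. For the rule gene aub, a Piwi protein, the levels were 70.0 and 46.1 CPM and 84.1 and 58.5 CPM. Both were higher in CycB-low cells, by under 2-fold. In the nuclear list of 11 genes the female calls were del (68.2 and 155 CPM) and HP1D3csd (97.4 and 48.6 CPM), in opposite directions, and no call was made in the male library, where HP1D3csd stood at 76.5 and 38.3 CPM, just under the limit. In the chromatin list the single call in each library was Lsd-2, which encodes a lipid droplet protein and does not belong to chromatin, at 53.2 and 149 CPM in female and 40.3 and 112 CPM in male cells. BigH1, the embryonic linker histone, stood at 403 and 713 CPM in female and 551 and 838 CPM in male cells.

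In CycB-low cells the leading gene was TfIIA-S-2, a paralog of the small subunit of the general transcription factor TFIIA (X, 1011101 to 1011643). It stood at 35.3 CPM in female CycB-low and 6.05 CPM in CycB-high cells, and at 21.5 and 4.02 CPM in male cells. CycB-low cells were 5.84-fold (4.23 to 8.24) and 5.33-fold (3.96 to 7.32) higher, and other cells held 0.670 and 1.06 CPM. A UMI was seen in 37.8% of CycB-low and 7.80% of CycB-high female cells and in 14.1% and 2.78% of male cells. Thinning left 5.81% and 0.270% of female and 3.95% and 0.726% of male cells, beside 0.133% and 0.290% of other cells. The main subunit gene TfIIA-S stood at 692 and 536 CPM in female and 779 and 571 CPM in male cells, under 2-fold apart. It was 1 of 13 female and 14 male transcription factor genes past the filter, among which TfIIA-S-2 was the single call in each library. Tbp, the TATA-binding protein, stood on the other side at 68.9 and 118 CPM and at 78.1 and 124 CPM, also under 2-fold apart.

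The list of germline-biased copies of ribosomal protein genes stood higher in CycB-low cells. All 9 measured copies had a log2 ratio above 0 in both libraries, with medians of 0.28 and 0.37, and the same 4 were at least 2-fold higher in each. RpS19b (3R, 23932729 to 23933530) stood at 67.4 and 18.5 CPM in female and 102 and 24 CPM in male CycB-low and CycB-high cells, 3.65-fold (3.03 to 4.44) and 4.24-fold (3.75 to 4.81) apart. RpL37b stood at 54.7 and 19.2 CPM in female and 69.8 and 25.0 CPM in male cells. For RpS10a the levels were 156 and 63.3 CPM in female and 227 and 93.3 CPM in male cells, and RpL22-like differed by 2.21-fold and 2.47-fold. Other cells held 2.84 and 3.82 CPM of RpS19b and 3.16 and 5.73 CPM of RpS10a, far below either germ cell class. The list as a whole was not confined to germ cells. It summed to 5707 and 5273 CPM in other cells, against 6349 and 6319 CPM in female and male CycB-high cells. Abundant copies were near balance, as RpS5b stood at 2242 and 2168 CPM in female and 2371 and 2209 CPM in male cells. Reads of near-identical copies could be split between them. For comparison, 78 of 79 main ribosomal protein genes, a list formed by symbol after the data were seen, also had a log2 ratio above 0 in each library, but with medians of 0.13 and 0.15 and no call. Their summed level was 334098 and 305083 CPM in female and 329323 and 296681 CPM in male cells. The proteasome subunit genes, listed in the same way, went the other way, with 26 of 31 female and 27 of 31 male genes below 0, medians of -0.31 and -0.27 and no call.

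Of the meiosis list, cona, a central component of the synaptonemal complex (3R, 18385828 to 18386887), stood at 29.3 and 6.79 CPM in female and 55.4 and 10.6 CPM in male CycB-low and CycB-high cells. It was 4.31-fold (3.17 to 5.99) and 5.22-fold (4.35 to 6.31) higher in CycB-low cells, and other cells held 0.0706 and 0.636 CPM. The gene overlaps Vha100-4 on the opposite strand. A sister chromatid cohesion gene, ord, was called in the female library at 28.4 and 13.6 CPM and was under 2-fold apart in the male library at 41.6 and 22.6 CPM. The other 6 measured genes of the list were under 2-fold apart, among them c(3)G, the transverse filament of the complex, at 112 and 137 CPM in female and 182 and 175 CPM in male cells.

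In the list of germline identity and differentiation genes, 17 female and 16 male genes passed the filter, and 3 in each library were called on the CycB-low side. CG17650, one of the rule genes, stood at 191 and 85.2 CPM in female and 237 and 112 CPM in male cells, 2.24-fold and 2.12-fold apart. The differentiation factor bgcn stood at 31.9 and 16.1 CPM in female and 35 and 16.6 CPM in male cells, which passed the limit in the male library and lay just under it in the female library. The zinc-finger gene chinmo was 5.06-fold (3.87 to 6.72) and 4.45-fold (3.58 to 5.60) higher in CycB-low cells, at 44.8 and 8.86 CPM in female and 33.7 and 7.56 CPM in male cells. Other cells held more chinmo than either class, at 82.6 and 191 CPM. Another female call, lin-28, stood at 75.1 and 31.5 CPM in female and 14.7 and 9.25 CPM in male cells. Genes near balance included ovo (399 and 465 CPM in females, 357 and 412 CPM in males) and Sxl (183 and 135 CPM, 82.1 and 79.5 CPM). The calls on the CycB-high side were nos and pum in each library, as given above.

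Some CycB-low genes were more abundant outside the germline. Of the 37 shared CycB-low genes, 12 had more CPM in other cells than in either class, in either library. Examples are the adhesion gene Fas2 (118 and 35.3 CPM in female CycB-low and CycB-high cells, 354 CPM in other cells), Obp99a (459, 156 and 1540 CPM) and the high mobility group gene HmgZ (486, 210 and 2480 CPM). Their male levels were lower in germ cells and similar in other cells, with Fas2 at 25.9, 8.77 and 250 CPM, Obp99a at 56.9, 28.2 and 1576 CPM and HmgZ at 86.0, 39.5 and 2346 CPM. Of the 83 genes called on the CycB-low side in the female library but not in both, 65 (78.3%) had more CPM in other cells than in either class, beside 23.9% of all genes. Of the 17 genes called on the CycB-low side in the male library but not in both, 3 (17.6%) did, beside 22.3% of all genes. On the CycB-high side this held for 5 of the 128 shared genes in female cells and 7 in male cells. Among CycB-high genes called in the female library but not in both, it held for 5 of 75 (6.67%). For the matching genes of the male library it held for 8 of 19 (42.1%).

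Marker genes of other embryonic cell types were then summed. Over 90 such markers, female CycB-low cells held 2948 CPM and CycB-high cells 2196 CPM, against 8059 CPM in other cells. The sums were 1710, 1673 and 7261 CPM in the male library. The 38 markers at least 4-fold higher in other cells summed to 616 and 387 CPM in the female and 217.9 and 193 CPM in the male classes. In the female library 1 of the 90 markers was at 0 UMIs in CycB-low and none in CycB-high cells, and in the male library 1 and 3 were. The defining genes elav of neurons (250 and 124 CPM) and grh of epidermis (51.7 and 18.6 CPM) were at least 2-fold higher in female CycB-low cells, while elav stood at 85.9 and 55.2 CPM and grh at 5.87 and 5.39 CPM in male cells. The other female calls on this side were SoxN, dpn, pros, scrt, nrv2, fkh, grn, Ance and vvl. In the male library the call on this side was Mef2, at 30.4 and 12.8 CPM. On the CycB-high side the calls were egr and cad alone. The neuron list summed to 429 and 206 CPM in female and 136 and 88.7 CPM in male CycB-low and CycB-high cells. For the neuroblast list the sums were 429 and 236 CPM and 197 and 150 CPM. The epidermis list as a whole summed to 368 and 371 CPM in female and 242 and 339 CPM in male CycB-low and CycB-high cells, with shg, itself a migration gene, on the CycB-high side. Both egr of the amnioserosa list (19.9 and 118 CPM in females, 22.5 and 93.9 CPM in males) and cad of the endoderm list (11.1 and 45.5 CPM, 15.5 and 36.1 CPM) were at least 2-fold higher in CycB-high cells of each library. Among these markers, elav, grh, shg, egr and cad were picked out after their values were seen. The median cell differed less than the sum, at 1833 and 1742 CPM of the 90 markers in female and 1531 and 1544 CPM in male cells. With the cells holding the lower share of these markers alone, 29 of the 37 shared CycB-low genes and 125 of the 128 shared CycB-high genes were still called in both libraries. In all, 59 genes were called on the CycB-low and 173 on the CycB-high side there, so these are partly other genes. The part of other cells in the remaining differences was not tested.

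**Figure D3:**
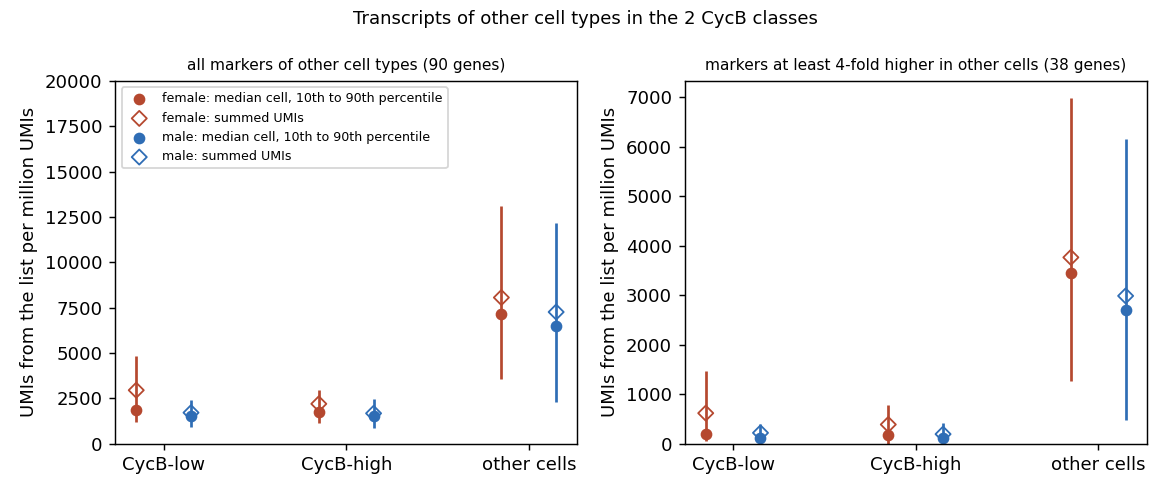
Summed marker levels of other embryonic cell types (CPM, vertical axis) in CycB-low, CycB-high and other cells of the female (red) and male (blue) libraries, for 90 markers and for the 38 at least 4-fold higher in other cells. Diamonds are class sums, dots the median cell and bars the 10th to 90th percentile of cells; female CycB-low cells reach to 4852 in the left panel while their median stays at 1833.

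Levels were also read along CycB within each library. Cells were divided into 5 bins of under 2, 2 to 5, 5 to 10, 10 to 20 and at least 20 CycB UMIs per 10000, with 178 to 348 female and 743 to 1060 male cells each. Of the 128 shared CycB-high genes, 98 in the female classes and 103 in the male classes stood higher in every next bin. The 37 shared CycB-low genes stood lower in every next bin in 21 and 26 cases. These genes were chosen by the same cells and CycB values, so a rise or fall over the bins was partly built in. No share over all genes is given beside these counts. Transcripts of pgc went through 6.90, 22, 110, 309 and 872 CPM in the female and 11.2, 37.4, 122, 359 and 938 CPM in the male library. The share of cells with a pgc UMI moved with them, from 8.02% in the lowest to 94.4% in the highest female bin and from 6.28% to 89.9% in the male bins.

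The shape over the bins differed between genes. Transcripts of dhd were flat up to the middle bin and then steep, at 48.9, 49.3, 68.1, 132 and 940 CPM in the female and 55.2, 53.9, 69.2, 117 and 868 CPM in the male library. Transcripts of mtrm stood at 9.74, 8.19, 9.67, 28.1 and 226 CPM in female and 10.2, 12.1, 16.2, 29.0 and 213 CPM in male cells. RpS10a on the CycB-low side had its largest step at the top as well, through 190, 134, 115, 89.5 and 26.6 CPM in female and 248, 209, 162, 130 and 36.7 CPM in male cells. TfIIA-S-2 was spread evenly, at 48.5, 27.0, 13.3, 7.58 and 3.91 CPM and at 26.2, 17.4, 11.5, 5.46 and 1.83 CPM.

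**Figure D4:**
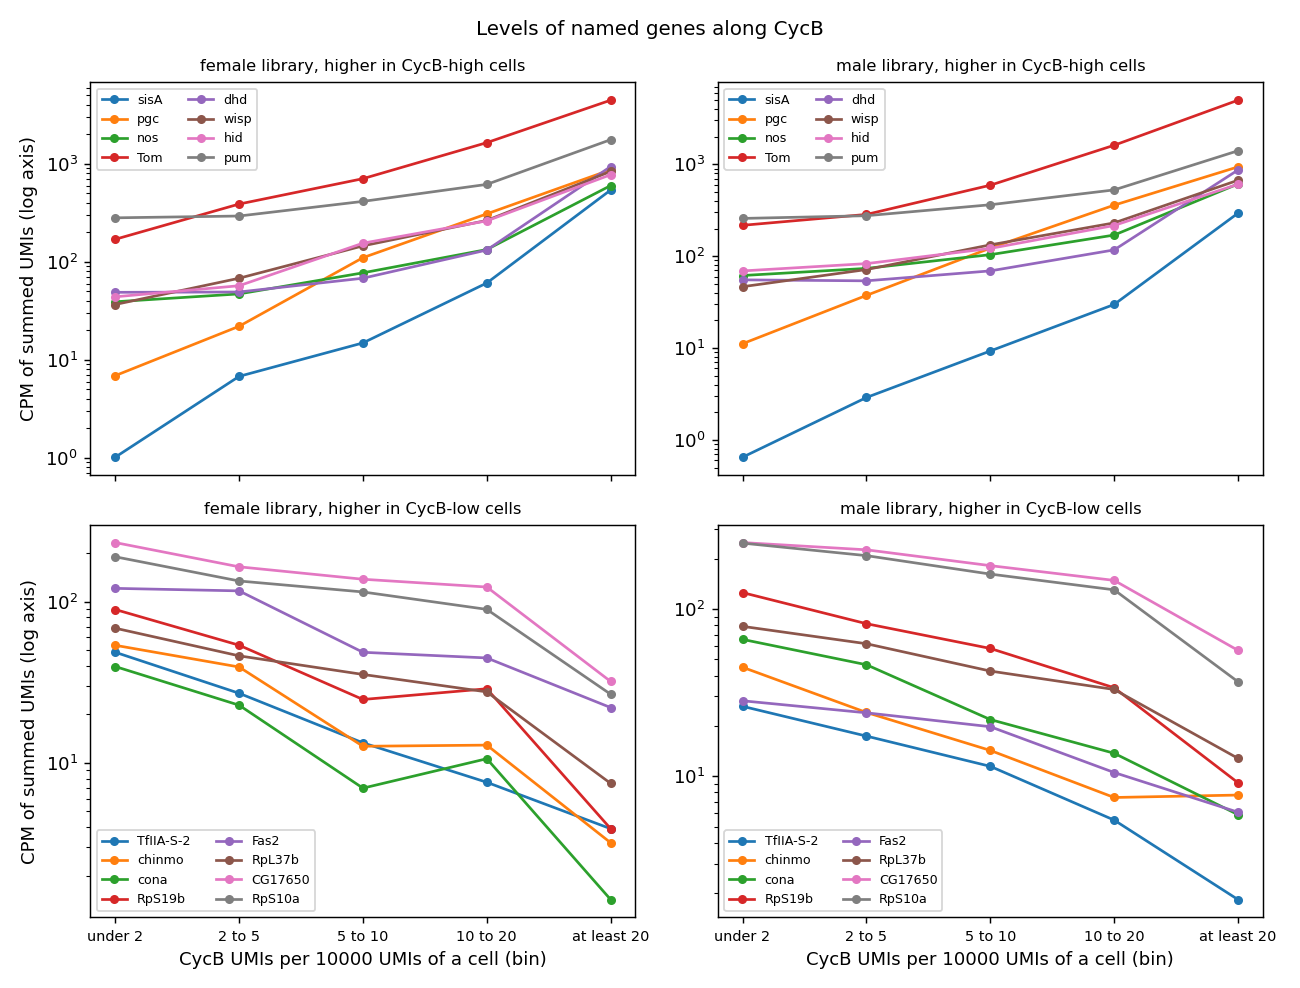
Summed level (CPM, log axis) of 16 genes in 5 bins of CycB UMIs per 10000 for the female (left) and male (right) libraries, with genes higher in CycB-high cells above and genes higher in CycB-low cells below. pgc goes from 6.90 to 872 CPM in the female and from 11.2 to 938 CPM in the male library, and RpS10a from 190 to 26.6 and from 248 to 36.7 CPM.

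**Figure D5:**
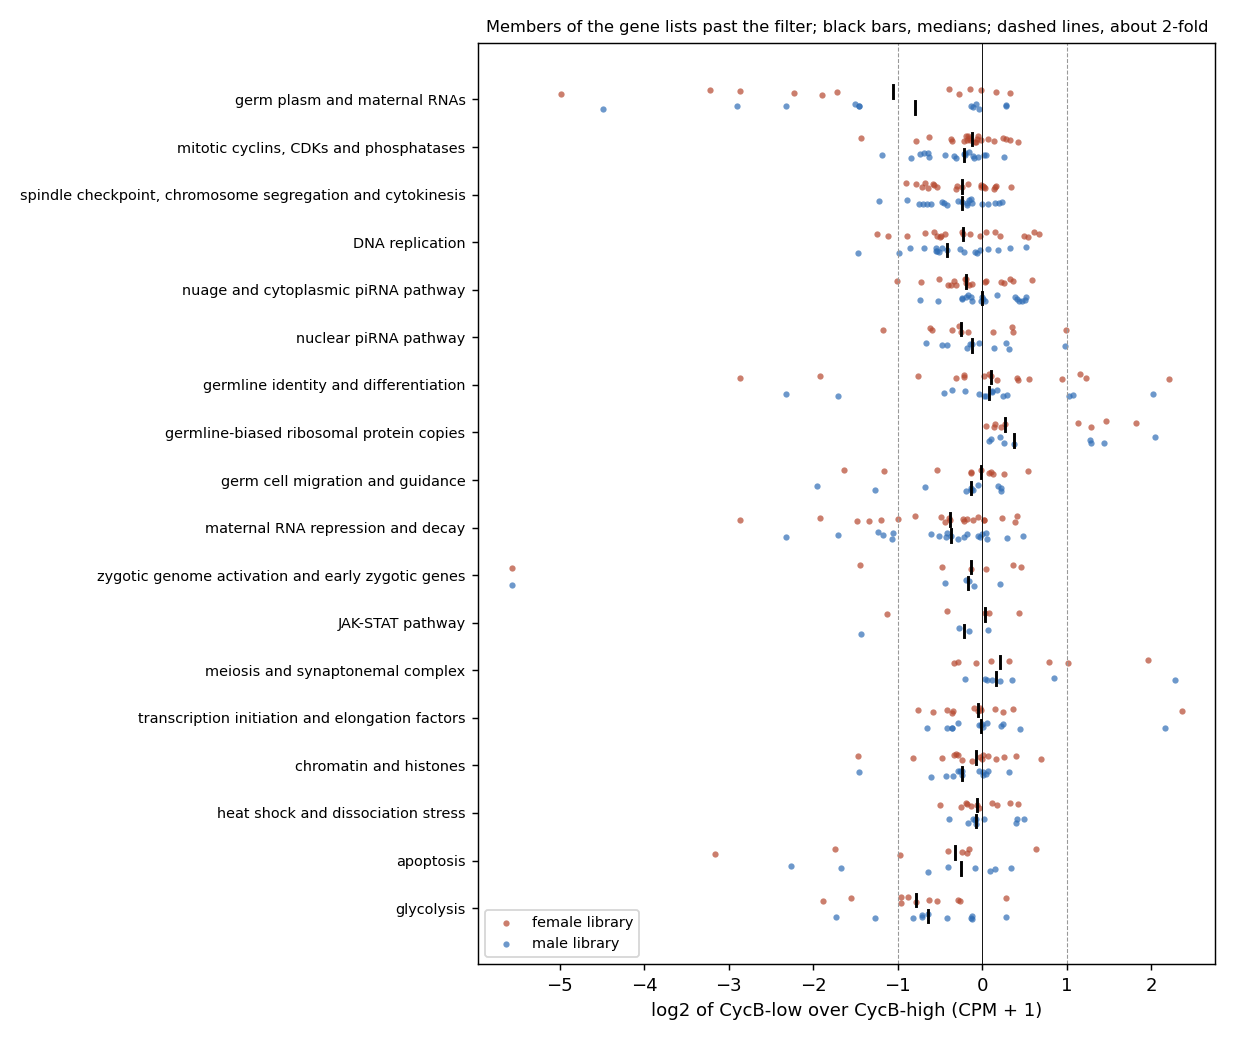
Each dot is a gene of the named list that passed the filter, placed by its log2 ratio of CycB-low over CycB-high cells (CPM + 1) in the female (red) and male (blue) library; black bars are list medians. Germ plasm (medians -1.05 and -0.79) and glycolysis (-0.79 and -0.64) lie towards CycB-high cells, and germline-biased ribosomal protein copies (0.28 and 0.37) towards CycB-low cells.

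No stress gene passed the 2-fold limit. The list of heat shock and dissociation genes held 11 female and 10 male genes past the filter, with medians of -0.06 and -0.07. Hsp23, a small heat shock protein, stood at 3083 and 2301 CPM in female and 3575 and 2682 CPM in male CycB-low and CycB-high cells. Levels of Hsp70Bc were 225 and 199 CPM in female and 148 and 156 CPM in male cells.

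X-linked genes differed in sign between the libraries. In the female library the median log2 ratio of low over high was 0.05 over 949 X-linked and -0.05 over 4277 autosomal genes, a difference of 0.09. In the male library it was -0.13 over 810 and -0.02 over 4269 genes, a difference of -0.11. A ratio above 0 was found for 55.2% of X-linked and 45.5% of autosomal genes in female cells, and for 34.7% and 47.4% in male cells. The same difference was -0.10 in the unsexed germ cells, and in other cells 0.04 in female cells and -0.01 in male cells. The lower and upper quartiles of X-linked ratios were -0.22 and 0.26 in the female and -0.41 and 0.07 in the male library. On chromosome 4, 31 female and 33 male of 47 genes lay below 0, with medians of -0.18 and -0.17, beside 2783 of 5270 female and 2797 of 5121 male genes overall.

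In the unsexed library the same limits gave 1104 CycB-low and 1355 CycB-high cells. There 429 of 4857 genes (8.83%) were at least 2-fold higher in CycB-low and 483 (9.94%) in CycB-high cells. Of the 128 shared CycB-high genes, 125 were measured there, all 125 were higher in CycB-high cells and 118 by at least 2-fold. Of the 37 shared CycB-low genes, 30 were measured, all 30 were higher in CycB-low cells and 27 by at least 2-fold. The levels of pgc were 56.7 and 2282 CPM, those of sisA 3.82 and 199 CPM and those of TfIIA-S-2 73.7 and 2.53 CPM in unsexed CycB-low and CycB-high cells. This library covered younger embryos and another kit version, which cannot be told apart here, and pgc, nos and CG17650 also entered its germ cell rule.

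The limits of 5 and 10 were also applied to cells outside the germline. Of 4668 genes in other cells of the female library, 457 (9.79%) were at least 2-fold higher in CycB-low and 311 (6.66%) in CycB-high cells, and of 4015 in the male library 596 (14.8%) and 228 (5.68%). These values rest on 53 and 34 CycB-high cells. The 128 shared CycB-high germ cell genes were measured for 57 genes in female other cells, where 34 had the same direction and 16 were called, and for 42 genes in male other cells, where 24 had the same direction and 5 were called. Of the 37 shared CycB-low genes, 13 were measured in each, of which 8 had the same direction and 3 were called in female other cells, and 12 and 7 in male other cells. Over all genes measured, 50.6% of female and 48.3% of male other-cell ratios lay on the CycB-high side and 49.4% and 51.7% on the CycB-low side. Across genes, the Spearman correlation between the log2 ratios of germ cells and of other cells was 0.187 over 4146 genes in the female and 0.174 over 3516 genes in the male library, beside 0.883 between the germ cells of the libraries.

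Among genes measured in both libraries, few differed in how they went with CycB. Of these 4974 genes, 5 had log2 ratios at least 1 apart. Genes past the filter in 1 library alone are outside this count. An example is the female call fkh, at 21.6 and 4.28 CPM in female and 2.64 and 2.57 CPM in male CycB-low and CycB-high cells. The 5 genes were CG13465, BobA and Brd, described above, the kinase subunit gene Pka-C3, and Ance, an angiotensin-converting enzyme homolog and amnioserosa marker. Pka-C3 stood at 1.96 and 38.8 CPM in female and 4.19 and 23.1 CPM in male CycB-low and CycB-high cells. Ance stood at 99 and 45.0 CPM in female and 46.2 and 45.0 CPM in male cells, and other cells held 219 and 187 CPM.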

How the data were processed

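The deposited matrices hold UMI counts per gene and cell, which the authors made with Cell Ranger on the genome build BDGP6, per the submitters' processing notes. The file headers name 10x software 3.0.1 for the unsexed and 3.1.0 for the sexed libraries. The annotation release and any use of strand are not given in the sources used here. Gene positions come from the BDGP6 annotation supplied with the series.

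The members, gene lists and limits were chosen with earlier results of these data known. Of 386 list genes, 384 matched a feature. UMIs of each class were summed (pandas 2.3.3, numpy 2.4.6) and scaled to CPM without CycB and mitochondrial genes. All 38 mitochondrial genes had 0 UMIs in the sexed matrices. Log2 ratios use CPM plus 1. Calls needed a CPM ratio of 2. Ratio intervals are exact conditional Poisson and share intervals exact Clopper-Pearson (scipy 1.17.1), all at 95%. TMM factors came from edgeR 4.0.16. Named genes were the 12 highest and 12 lowest shared ratios, ranked by the library nearer to 1, called list members, and up to 4 abundant others per list. Doublets were kept. Scrublet in scanpy 1.11.5 marked 389 female cells (3.79%) but 5 male cells (0.0748%), too few for a working caller, so an alternative removed the 845 and 358 highest-scoring cells at 0.8% per 1000 cells. Other settings, 16 set at the outset and 2 chosen after seeing the data, changed 1 choice each. The calculations were tested on simulated data.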

Additional observations from a re-analysis of the deposited data

Results flagged for a closer look

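One result was set apart because the 2 libraries went opposite ways. The X-linked minus autosomal difference in the median log2 ratio of CycB-low over CycB-high cells was 0.09 in female and -0.11 in male cells. The gap of 0.20 between the libraries was not tested, since each sex has 1 library. The sum of other-cell markers was higher in CycB-low than in CycB-high cells of the female library (2948 and 2196 CPM) and nearly equal in the male library (1710 and 1673 CPM), and its part in the gap was not tested.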

How the results depend on the processing

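The alternatives moved counts more than directions. All 165 shared genes kept their direction in both libraries under each setting, except that 160 did among cells without a pgc UMI and 163 among cells with a lower share of strict markers. Female, male and shared counts were 323, 201 and 165 (37 CycB-low and 128 CycB-high). With a filter of 5 CPM they became 575, 427 and 290 (105 CycB-low), and with 50 CPM 180, 114 and 95 (17 and 78). Thinning gave 154 female and 74 shared genes (15 and 59). CycB limits of 3 and 15 gave 589, 450 and 354 (111 and 243), and shares of CycB-low cells of 29.6% and 28.6%. A limit of 1.5-fold gave 925, 691 and 535 (143 and 392), and 3-fold 104, 61 and 54 (4 and 50). Requiring 3 of 5 germ genes, without pgc and nos, gave 130 male genes over both directions and 85 shared CycB-high genes. Of the 165 shared genes, 109 were still called in both libraries there. The male CycB-low share was 47.9% there and 40.2% with 4 of 7 genes. Cells with the lower share of other-cell markers gave 59 shared CycB-low genes, a male CycB-low share of 43.9% and an X-linked difference of 0.14 in the female library. Cells without a pgc UMI left 45 female and 399 male CycB-high cells, CycB-low shares of 72.4% and 62.1%, and 88 shared genes (24 and 64). There Cyp6v1, a cytochrome P450 gene, turned to 0.33 in the female library from -2.72. The X-linked difference in the male library was -0.061 there and -0.17 with limits of 3 and 15. It kept its sign in both libraries under every setting. Of the alternatives chosen after seeing the data, strict markers gave 67 shared CycB-low genes, and requiring UMIs of both zpg and CG14545 gave a male CycB-low share of 43.7%. The causes of these shifts were not tested beyond what each setting removes. TMM scaling moved the log2 ratios by 0.03 and 0.04 and gave 164 shared genes. The dense tables, in which the median depths were 22450 and 19485.5 UMIs, gave 165 shared genes, 155 of them among the 165 above. Depth limits shares of cells with a UMI. No paired analysis was possible because each sex has 1 library.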
